A study of Homo sapiens with 12 samples.

Results

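The IFIT and IFITM genes are 2 families of interferon-induced antiviral genes. The 7 members, IFIT1, IFIT2, IFIT3, IFIT5, IFITM1, IFITM2 and IFITM3, were taken by gene name from tables of 60106 genes, and all 7 were found. Gene counts came from 12 RNA sequencing libraries of 2 prostate cancer cell lines, PC3 and VCaP. PC3 derives from a bone metastasis, and VCaP derives from a vertebral metastasis and carries an ERG rearrangement. Each line received a non-targeting siRNA (NSI) or an siRNA against the forkhead transcription factor FOXA1 (siFOXA1), with 3 replicates per group. By its title, the study asked how FOXA1 acts on the expression of splicing-related genes and on splicing.

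All 4 groups were transfected with the RNAiMax reagent, and RNA was taken at 72 hours. PC3 received 20 nM siRNA and was kept in RPMI medium, and its libraries were made with a kit for polyadenylated RNA. VCaP received 40 nM siRNA and was kept in DMEM medium, and its libraries were made with a kit for total RNA. The line therefore cannot be told apart from the dose, the medium, the kit and the use of strand in counting. The labels do not say that replicates were separate cultures, so p-values measure the spread between these samples, which may be technical. In bulk RNA, fewer cells expressing a gene and less RNA per cell cannot be told apart.

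IFIT proteins lie in the cytoplasm and bind foreign RNA. IFIT1 recognises RNA whose cap lacks the methylation of the cell's own messages, IFIT3 binds and stabilises IFIT1, IFIT2 associates with both, and IFIT5 binds RNA with a 5′ triphosphate. IFITM proteins are small membrane proteins: IFITM1 is found mainly at the cell surface, and IFITM2 and IFITM3 in endosomes and lysosomes, where they hinder the fusion of viral with cellular membranes. Interferon receptors act through JAK kinases to form a complex that includes STAT2 and IRF9 and binds the interferon-stimulated response element (ISRE) before the start of such genes.

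The IFIT members lie in a row on chromosome 10, all on the plus strand of GRCh37. IFIT2 (ENSG00000119922.9_3) spans 91043451 to 91069033, IFIT3 (ENSG00000119917.13_2) spans 91087651 to 91100728, IFIT1 (ENSG00000185745.9_2) spans 91152303 to 91166243 and IFIT5 (ENSG00000152778.8_2) spans 91174343 to 91180758. The first 3 of these lie within the span of LIPA, a lysosomal lipase gene on the minus strand from 90973326 to 91174314, and share no exon base with it. The IFITM members lie on chromosome 11. IFITM2 (ENSG00000185201.16_4) spans 307631 to 309395 and IFITM1 (ENSG00000185885.15_3) spans 313506 to 315272, both on the plus strand. IFITM3 (ENSG00000142089.15_4) spans 319669 to 327537 on the minus strand.

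The bases before the start sites are shown because the members share a motif there. The members were taken by name from 2 interferon-induced families, and the ISRE lies before such genes. Matches are therefore no finding independent of that choice. RefSeq promoters on GRCh38.p14, a later build than that of the counts, had entries for 5 members, with 2 start sites for IFIT3. The search covered the 250 bases before each start site on both strands for the ISRE core GAAANNGAAA, which reads TTTCNNTTTC on the other strand. All 6 promoters, and so 5 of 5 members with an entry, held the core, against 1061 of 35116 promoters in the table (3.02%). Capitals mark the cores found within those 250 bases, and each stretch reads 5′ to 3′ along the gene's strand.
IFIT1, chr10:89392482-89392554, plus: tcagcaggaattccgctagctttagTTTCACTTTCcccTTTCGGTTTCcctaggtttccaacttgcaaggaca
IFIT3, first start site, chr10:89327816-89327909, plus: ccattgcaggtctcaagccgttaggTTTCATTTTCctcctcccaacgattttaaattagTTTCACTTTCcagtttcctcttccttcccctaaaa
IFIT3, other start site, chr10:89332410-89332512, plus: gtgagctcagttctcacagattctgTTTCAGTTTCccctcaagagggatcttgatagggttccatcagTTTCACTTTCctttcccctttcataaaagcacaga
IFIT5, chr10:89414498-89414567, plus: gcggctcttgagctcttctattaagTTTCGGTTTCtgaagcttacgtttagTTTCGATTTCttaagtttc
IFITM1, chr11:313975-314034, plus: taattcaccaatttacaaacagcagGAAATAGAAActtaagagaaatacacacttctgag
IFITM3, chr11:320861-320937, minus: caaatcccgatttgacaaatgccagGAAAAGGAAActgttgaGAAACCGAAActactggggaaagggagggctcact

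Among matches that ended before the start site, those of the IFIT promoters all read in the TTTCNNTTTC direction, with 2 in each promoter. Those of the IFITM1 and IFITM3 promoters read as GAAANNGAAA, with 1 match in IFITM1 and 2 in IFITM3. IFIT5 and IFITM1 each had 1 more match, which lay across the start site. Leaving out the matches across the start site, the nearest ended 94 bases before it in IFIT1, 10 in IFIT5, 31 in IFITM1 and 26 in IFITM3. At the 2 IFIT3 start sites the nearest ended 113 and 42 bases before. The gamma-activated site TTCNNNGAA is a motif of genes that interferon gamma induces. It was in 6.57% of all promoters and in 1 of the 5 members, IFITM1. There it lay 12 to 4 bases before the start and overlapped no ISRE core that ended before the start. Its overlap with the IFITM1 core across the start site was not examined. A match describes the letters only and is no measure of binding.

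FOXA1, the targeted gene, fell in both lines. Its level, in counts per 1000000 scaled with TMM factors within each line (CPM), was 246.5 to 296.2 in PC3 NSI and 163.6 to 184.1 in PC3 siFOXA1, a log2 fold change of -0.65. In VCaP it was 457.7 to 543.6 in NSI and 73.6 to 85.2 in siFOXA1, a log2 fold change of -2.60. Libraries held 123140099 to 188226483 counts in PC3 and 48187047 to 59839211 in VCaP, so a level near 0 was measured less deeply in VCaP. The cells were checked against marker genes: the summed level of 4 epithelial markers was 399.9 to 512 CPM in PC3 NSI, 378 to 425 CPM in PC3 siFOXA1, 732 to 774 CPM in VCaP NSI and 715 to 774 CPM in VCaP siFOXA1.

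In PC3, all 7 members rose with siFOXA1, from 2.01-fold for IFITM2 to 17.4-fold for IFIT1, each with an adjusted p under 0.05 in edgeR's quasi-likelihood test with Benjamini-Hochberg adjustment over 26435 genes. Of those genes, 15.0% were called higher and 27.0% in either direction. Blocking on replicate number raised the PC3 calls from 7149 to 11297 genes, and the same 7 members remained called higher. In VCaP, 4 IFIT members rose by at most 2.79-fold and IFITM3 fell. The other 2 members, IFITM1 and IFITM2, had too few counts in VCaP to pass the filter on low counts. Of 22925 genes tested in VCaP, 22.5% were called higher, 23.3% lower and 45.8% in either direction.

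**Figure D1:**
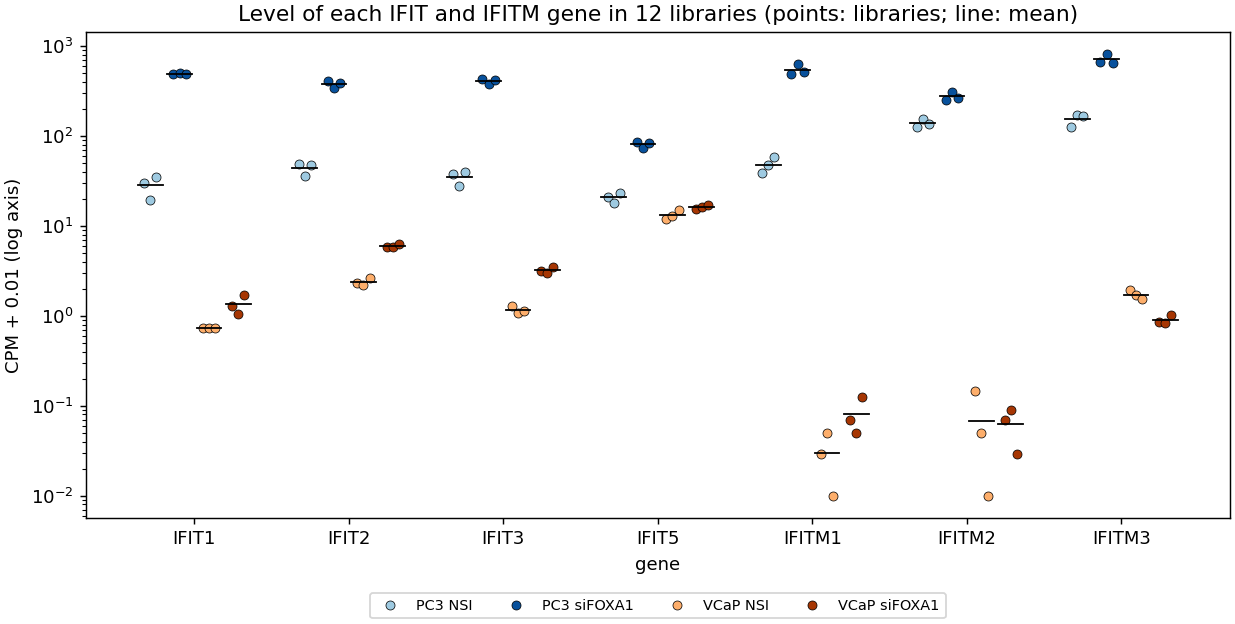
Level of each member in each library, as CPM plus 0.01 on a log axis; points are libraries, and lines are the means of 3. The siFOXA1 points of PC3 stand above the NSI points for all 7 genes, and the VCaP points of IFITM1 and IFITM2 lie near 0. How many of all genes were so separated was not counted.

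IFIT1, the sensor of incompletely capped RNA, rose most. Its level was 30.1, 19.2 and 35.3 CPM in the 3 PC3 NSI libraries, against 483.4, 498.6 and 492.9 CPM in the PC3 siFOXA1 libraries. The groups lay far apart, and NSI replicate 2 was the lowest. The log2 fold change was 4.12 (SE 0.21, adjusted p = 7.12e-06), ranking 64 from the highest of 26435 genes. In VCaP the level of IFIT1 was 0.732, 0.717 and 0.730 CPM with NSI, against 1.27, 1.03 and 1.69 CPM with siFOXA1. The VCaP groups did not overlap either, but their values rest on 36 to 89 reads per library. The VCaP log2 fold change was 0.88 (SE 0.21, adjusted p = 0.00718), or 1.84-fold.

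IFIT3, the partner that stabilises IFIT1, stood at 37.6, 28 and 39.9 CPM in PC3 NSI and at 426.2, 376.1 and 418.8 CPM in PC3 siFOXA1. Each siFOXA1 library was above every NSI library, with a log2 fold change of 3.53 and an adjusted p of 2.32e-06 (SE 0.15). In VCaP, IFIT3 stood at 1.27, 1.08 and 1.11 CPM with NSI and rose to 3.18, 2.96 and 3.50 CPM with siFOXA1. Its VCaP rise was the largest of the family there, with a log2 fold change of 1.48 and an adjusted p of 2.59e-05 (SE 0.14).

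IFIT2, which binds IFIT1 and IFIT3, was at 49.2, 35.5 and 47.4 CPM in PC3 NSI and at 414.0, 341.0 and 393.2 CPM in PC3 siFOXA1, again without overlap. The PC3 log2 fold change of IFIT2 was 3.12 (SE 0.15, adjusted p = 4.47e-06). In VCaP, IFIT2 was at 2.31, 2.19 and 2.62 CPM under NSI but at 5.87, 5.77 and 6.21 CPM under siFOXA1. The VCaP groups were apart by more than their own range, with a log2 fold change of 1.32 and an adjusted p of 1.42e-05 (SE 0.11). Exons of IFIT2 share 8.68% of their bases with RP11-149I23.3 on the same strand, which held 88.3 to 132 counts per PC3 library and 12.0 to 24.5 per VCaP library, so counts in the shared bases were divided.

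IFIT5, which acts as a monomer and is separate from the complex of the other three, moved least of its family. Its level was 20.9, 18.1 and 23.2 CPM in PC3 NSI and 86.2, 73.9 and 84.6 CPM in PC3 siFOXA1, a log2 fold change of 1.98 and an adjusted p of 1.38e-05 (SE 0.12). In VCaP its level was 11.9, 13.1 and 15.2 CPM with NSI, against 15.5, 16.1 and 17.2 CPM with siFOXA1. The highest VCaP NSI library nearly reached the lowest siFOXA1 library. The VCaP log2 fold change of 0.28 (SE 0.10) had an adjusted p of 0.0395, and 29.6% of genes tested had a larger one. This VCaP call was lost when any one of 5 of the 6 libraries was left out, with log2 fold changes of 0.19 to 0.31 and adjusted p of 0.0576 to 0.157 in edgeR. It was kept only without NSI replicate 3, at 0.38, and was also lost in the fit of all 12 libraries, at 0.31 (adjusted p = 0.0655).

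IFITM1, the member found at the cell surface, was at 39.2, 47.2 and 58.1 CPM in PC3 NSI and at 491.8, 638.1 and 517.0 CPM in PC3 siFOXA1. The groups were widely apart, with a log2 fold change of 3.51 and an adjusted p of 5.08e-06 (SE 0.17), close to that of IFIT3. In VCaP the 3 NSI libraries together held 3 rounded IFITM1 counts and the 3 siFOXA1 libraries 11. The pooled VCaP level had an exact Poisson interval at 95% of 0.00388 to 0.055 CPM in NSI and of 0.0356 to 0.128 CPM in siFOXA1, which covers counting error only. These intervals overlap.

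IFITM3, the endosomal restriction factor, was at 126.7, 169.8 and 167.6 CPM in PC3 NSI and at 668.7, 810.5 and 651.1 CPM in PC3 siFOXA1. The rise was a log2 fold change of 2.20 and an adjusted p of 2.24e-05 (SE 0.14). In VCaP, IFITM3 went the other way, from 1.91, 1.69 and 1.53 CPM with NSI to 0.853, 0.815 and 1.01 CPM in siFOXA1. No siFOXA1 library reached the lowest NSI library. The VCaP log2 fold change was -0.93 (SE 0.16, adjusted p = 0.00131), on 272 NSI and 137 siFOXA1 reads over 3 libraries each.

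IFITM2, the other endosomal member, had the smallest change in PC3. It stood at 124.4, 154.8 and 134.7 CPM with NSI but at 251.4, 312.3 and 266.5 CPM with siFOXA1, without overlap, and the log2 fold change was 1.00 (SE 0.12, adjusted p = 0.000565). In VCaP the libraries held 9 rounded counts in NSI, 7 of them in replicate 1, and 8 in siFOXA1. No change of IFITM2 was detectable in VCaP at this depth.

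The IFITM genes are near-identical over part of their length, and their counts are uncertain to that degree. Of the distinct stretches of 75 bases in their transcripts, 23.1% in IFITM1, 14.3% in IFITM2 and 11.2% in IFITM3 also occur in another gene's transcripts, mostly of the same family. These transcripts come from a later GENCODE release than that of the counts, so the shares do not measure the division of the counts themselves. Of IFITM3 exon bases, 23.7% are also exon of RP11-326C3.12 on the opposite strand, and PC3 counting ignored strand, so reads of the pair there cannot be told apart. RP11-326C3.12 itself held 39.9 to 85.2 counts per PC3 library, against at least 19151 for IFITM3. IFIT1, IFIT3 and IFIT5 shared no such stretch with another gene. Summed over each family, so that divisions within it cancel, the IFIT level rose 10.6-fold in PC3, from 128 ± 24.0 to 1363 ± 64.3 CPM (SD, n = 3), and the IFITM level 4.51-fold, from 341 ± 44.1 to 1536 ± 195 CPM (SD, n = 3). In VCaP the IFIT sum was 17.6 ± 1.81 in NSI and 26.8 ± 1.58 CPM in siFOXA1, and the IFITM sum 1.79 ± 0.27 and 1.02 ± 0.11 CPM (SD, n = 3).

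**Figure D2:**
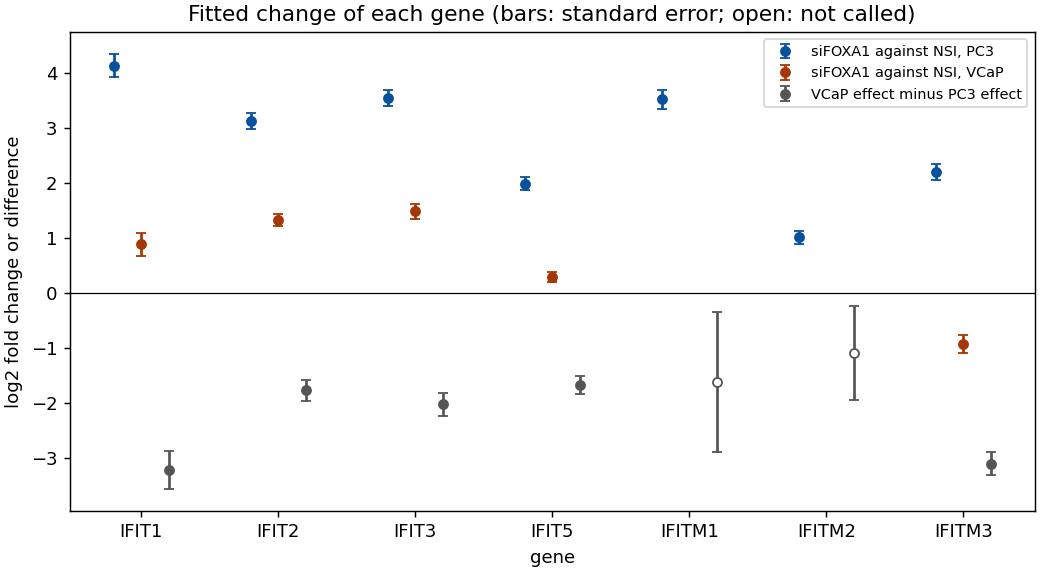
Fitted log2 fold change of each member in PC3 and in VCaP and the difference between the lines, with bars for 1 standard error; open symbols were not called. All PC3 values are above 0, from 1.00 to 4.12, and the IFITM3 value in VCaP is -0.93.

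The response differed between the lines for 5 of the 7 members, all with a smaller or opposite change in VCaP. This was tested as the interaction across the 12 libraries, which subtracts the PC3 log2 change from the VCaP log2 change. In that test 11.0% of 30425 genes were called lower and 22.2% in either direction. The difference was -3.22 (SE 0.35, adjusted p = 8.08e-06) for IFIT1, -1.78 (SE 0.20, adjusted p = 1.04e-05) for IFIT2 and -2.03 (SE 0.22, adjusted p = 7.01e-06) for IFIT3. For IFIT5 it was -1.67 (SE 0.17, adjusted p = 3.65e-06). IFITM3 had the smallest adjusted p, 8.88e-08, at -3.11 (SE 0.21). The differences for IFITM1, -1.62 (SE 1.27, adjusted p = 0.42), and IFITM2, -1.09 (SE 0.85, adjusted p = 0.42), were not called by edgeR and had wide errors, since VCaP held few reads. The IFITM1 difference was -0.68 without VCaP NSI replicate 2 and -2.23 without replicate 3. The IFITM2 difference was 0.44 without VCaP NSI replicate 1 and -1.72 without replicate 3. FOXA1 itself fell further in VCaP, by a difference of -1.93.

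Under NSI the groups of the 2 lines stood apart. In this contrast too, the line cannot be told apart from dose, medium, kit and strand use. The 5 members tested within both lines were lower in VCaP NSI than in PC3 NSI with an adjusted p under 0.05, in a contrast in which 44.2% of genes were called lower and 86.9% in either direction, so the call itself sets no member apart from other genes. The sizes ranged widely. The mean VCaP NSI level was 64.6% of the PC3 NSI level for IFIT5, 5.39% for IFIT2, 3.28% for IFIT3, 2.58% for IFIT1 and 1.11% for IFITM3. For IFITM1 and IFITM2 it was 0.0409% and 0.0422%, from 3 and 9 counts. These 2 genes passed the filter of the 12-library fit only through PC3, where they are high, so their calls as lower in VCaP were fixed by the filter. Their fitted log2 differences, -11.26 for IFITM1 and -11.25 for IFITM2, were -12.23 for IFITM1 without VCaP NSI replicate 2, -12.82 for IFITM2 without replicate 1, and -10.68 and -10.65 without replicate 3. From lowest to highest, the IFIT members all ran VCaP NSI, VCaP siFOXA1, PC3 NSI, PC3 siFOXA1, with no overlap between neighbouring groups. The share of all genes whose groups do not overlap was not counted, so this order sets no member apart from other genes. For IFITM3 the order of the VCaP groups was the reverse, and for IFITM2 the VCaP groups overlapped.

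Per kilobase of gene length (RPKM, from the TMM-scaled CPM), the makeup of each family also changed. In PC3 NSI the levels were 13.3 ± 2.40 for IFIT3, 10.7 ± 1.82 for IFIT2, 6.11 ± 1.77 for IFIT1 and 5.16 ± 0.64 RPKM for IFIT5 (SD, n = 3). IFIT1 exceeded IFIT5 there in 2 of 3 libraries. In PC3 siFOXA1 they were 154 ± 10.3 for IFIT3, 107 ± 1.66 for IFIT1, 93.3 ± 9.17 for IFIT2 and 20.3 ± 1.66 RPKM for IFIT5 (SD, n = 3). IFIT1 thus went from 17.1% to 28.5% of the summed IFIT level per length, while IFIT5 went from 14.7% to 5.42%.

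In VCaP, IFIT5 was the leading member, at 3.34 ± 0.42 RPKM in NSI and 4.06 ± 0.21 RPKM in siFOXA1 (SD, n = 3). It held 73.8% of the summed IFIT level per length in VCaP NSI and 57.9% in siFOXA1, while IFIT2 went from 12.9% to 20.7% and IFIT3 from 9.78% to 17.3%. Among IFITM members in PC3 NSI, IFITM2 and IFITM3 were at 131 ± 14.6 and 128 ± 20.0 RPKM, with IFITM2 the higher in 2 of 3 libraries, and IFITM1 was at 46.2 ± 9.11 RPKM (SD, n = 3). In PC3 siFOXA1, IFITM3 at 586 ± 72.1 and IFITM1 at 527 ± 75.1 RPKM had overlapping ranges, but IFITM3 was the higher in each of the 3 libraries, and IFITM2 was lowest at 262 ± 30.0 RPKM (SD, n = 3). The IFITM2 share went from 43.0% to 19.1% and the IFITM1 share from 15.2% to 38.3%. These shares are descriptions with no test.

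**Figure D3:**
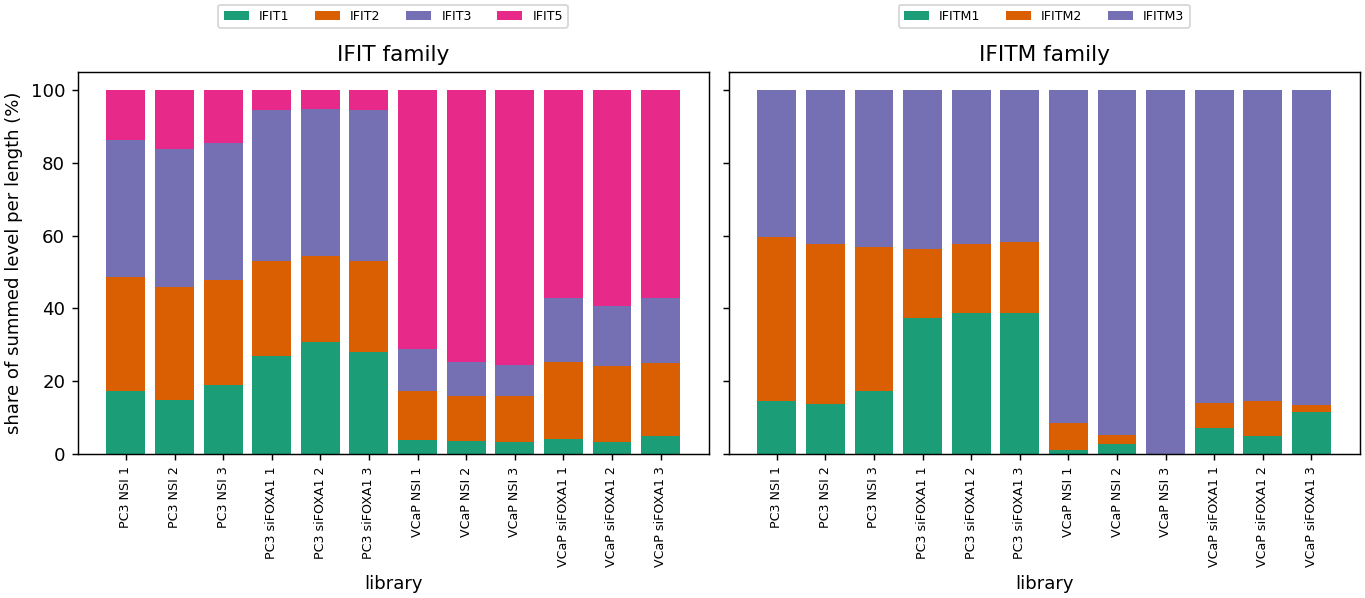
Share of each member, in percent of the summed level per length of its family, in each of the 12 libraries; the stacked bars start at 0 and reach 100. IFIT5 is the largest block in VCaP and among the smallest in PC3, and the VCaP blocks of IFITM1 and IFITM2 rest on at most 7 counts per library.

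Within a group, members of a family tended to be low in the same library. In PC3 NSI, replicate 2 was the lowest library for 4 of 4 IFIT members, and replicate 1 for 3 of 3 IFITM members. In PC3 siFOXA1, replicate 2 was the lowest for 3 of 4 IFIT members and the highest for 3 of 3 IFITM members. In VCaP siFOXA1, replicate 2 was the lowest for 3 of 4 IFIT and 2 of 3 IFITM members, and replicate 3 the highest for 4 of 4 and 2 of 3. IFITM2 ran the other way there, with replicate 3 the lowest and replicate 2 the highest. In VCaP NSI, replicate 2 was the lowest for 3 of 4 IFIT members, and replicate 3 for 3 of 3 IFITM members. The families thus had different orders of replicates in PC3 and in VCaP NSI. In VCaP siFOXA1 the order was similar except for IFITM2, and in VCaP IFITM1 and IFITM2 rest on few counts. For IFIT1 in VCaP NSI the highest library was only 1.02-fold the lowest. How many of all genes were lowest or highest in the same libraries was not counted, so other genes may share these orders. These are descriptions over 3 libraries, with no test.

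Other genes of the interferon pathway moved in PC3 in the same direction as the members. Of 68 listed genes in 6 groups, 61 were tested in PC3, and 47 were called higher, 2 lower and 12 neither, with a median log2 fold change of 2.49 against 0.02 over all genes. In VCaP 51 were tested, with 23 higher, 13 lower and 15 neither, and a median of 0.22 against 0.02 over all genes. In the interaction 35 of 62 were called lower and 6 higher, against 11.0% and 11.3% of all genes. Over all genes, 15.0% were called higher and 12.1% lower in PC3, and 22.5% and 23.3% in VCaP. The VCaP falls and the interaction rises were thus about as frequent in the lists as over all genes. The same shares stand beside the counts by group below. The members are not in these lists, and the counts come from the same libraries as theirs, so they are no independent evidence of the direction.

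Among ligands in PC3, the fibroblast interferon IFNB1 had 0, 2 and 0 counts with NSI, against 15, 13 and 20.5 with siFOXA1, and the type III interferon IFNL1 had 4, 0.17 and 1 with NSI, against 53, 49 and 61 with siFOXA1. Both were called higher (edgeR adjusted p = 0.0051 for IFNB1 and 0.000558 for IFNL1), though no library held more than 61 counts of either. IFNA1 (0.16) and IFNE (-0.17) were tested without a call. In VCaP no ligand passed the filter, and each listed ligand held at most 1 count in any library.

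Receptors moved little in PC3, with 1 of 6 called higher and 2 lower and a median log2 fold change of -0.08. IFNLR1, a chain of the type III receptor, rose by 0.56, and the interferon gamma receptor chains IFNGR1 and IFNGR2 fell by 0.32 and 0.55. In VCaP 5 of 6 receptors were called higher and 1 lower by edgeR, and 4 higher and 1 lower by DESeq2. There IFNAR2, a chain of the type I receptor, was at 0.59 and IFNGR1 at 0.95. IFNAR1, the partner chain of IFNAR2, was at -0.20.

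Genes of the complex that binds the ISRE differed between the lines. STAT2 was at 46.3 to 64.8 CPM in PC3 NSI and at 298.9 to 343.1 CPM in PC3 siFOXA1, a log2 fold change of 2.49 (SE 0.14). In VCaP the STAT2 groups overlapped, at 37.4 to 47.1 CPM in NSI and 38.0 to 43.8 CPM in siFOXA1, and the log2 fold change was -0.02 (SE 0.09, edgeR adjusted p = 0.888). The difference between the lines was -2.48 (SE 0.18). IRF9, the DNA-binding part of the complex, rose in both lines, by 1.21 (SE 0.11) in PC3 and 0.63 (SE 0.17) in VCaP, where its NSI mean was 1.86 CPM against 42.0 CPM in PC3.

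Of the other signalling genes, IRF1 rose by 2.45 and IRF7 by 1.76 in PC3, and in VCaP IRF1 had a log2 fold change of -0.44 with a call and IRF7 of -0.12 without one. In all, 8 of 11 signalling genes tested were called higher in PC3 and none lower. In VCaP edgeR called 4 of 12 higher and 3 lower, and DESeq2 called 3 higher and 3 lower. Over all genes in VCaP, 22.5% were called higher and 23.3% lower. STAT3, a signal transducer of cytokine receptors, held 1.17 to 3.18 counts per PC3 library and 2118 to 3248 per VCaP library. The feedback gene USP18, whose product damps signalling at the type I receptor, rose by 3.09 (SE 0.10) in PC3 and fell by 0.94 (SE 0.10) in VCaP. SOCS1, an inhibitor of JAK kinases, rose in both, by 3.30 and 1.55. SOCS3, a related inhibitor, was at -0.18 in PC3 without a call, and the replicate block brought its edgeR adjusted p to 0.0486.

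The effector list holds other genes that interferon induces. In PC3 29 of 29 were called higher, with a median of 3.16, and in VCaP 22 were tested, of which 10 were higher, 8 lower and 4 neither, with a median of 0.50. Of the 29, 10 were higher in both lines, and 8 were higher in PC3 and lower in VCaP. These are edgeR calls, and DESeq2 called 8 effectors higher and 7 lower in VCaP. The largest PC3 rises among sensors and effectors were those of MX2, a GTPase that acts against retroviruses, at 5.00, TRIM22, a ubiquitin ligase of the tripartite motif family, at 4.91, and CMPK2, a mitochondrial nucleotide kinase, at 4.59. The largest VCaP rises were those of TMEM173, the STING adaptor of DNA sensing, at 2.46, IFI44 at 1.97 and OAS1, which makes the activator of RNase L, at 1.55. These started from low mean levels in VCaP NSI, 0.582 CPM for TMEM173, 0.892 CPM for IFI44 and 3.94 CPM for OAS1. In VCaP siFOXA1 the means were 3.20, 3.51 and 11.6 CPM. The largest VCaP falls were those of HERC5, the ligase that attaches ISG15 to proteins, at -1.65, HERC6 at -0.90 and EIF2AK2, the RNA-activated kinase PKR, at -0.73. IFITM3 at -0.93 in VCaP therefore lay beside these last genes in value, and IFIT2 and IFIT3 at 1.32 and 1.48 lay beside OAS1. In the sensor group, edgeR called 5 of 8 higher in PC3 and none lower, and 3 of 8 higher in VCaP. DESeq2 called 4 sensors higher in PC3 and 3 in VCaP.

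**Figure D4:**
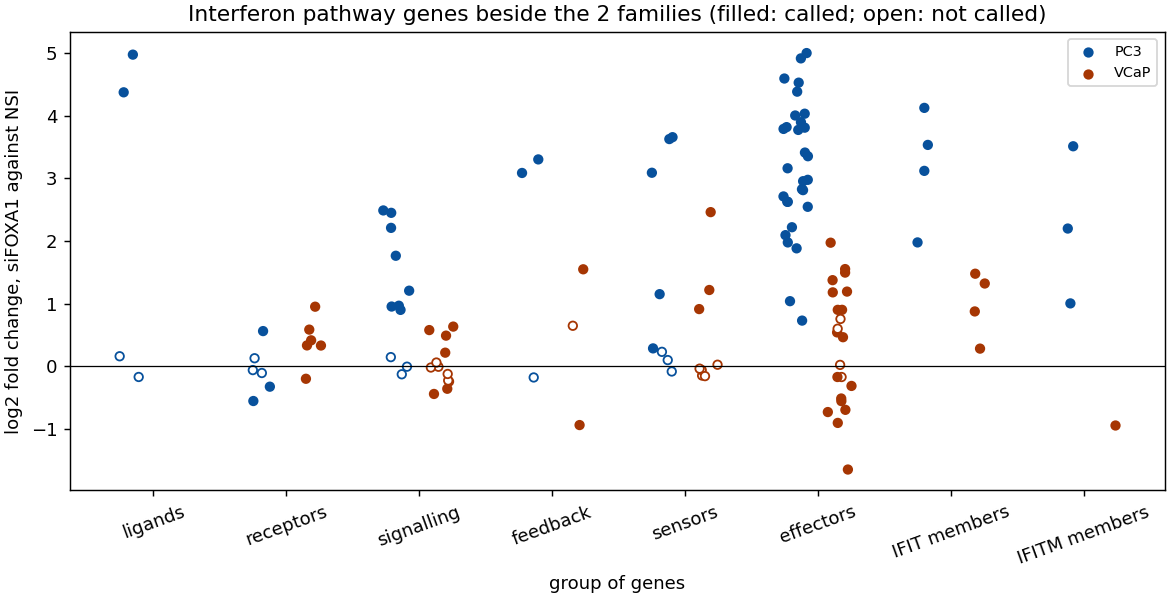
Log2 fold change of siFOXA1 against NSI for each tested gene of the 6 pathway groups and of the 2 families; blue points are PC3, orange points are VCaP, and filled points were called. The 29 effectors in PC3 are all above 0, and the VCaP effectors lie on both sides of 0.

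Other cell types were looked for through their markers. Of 6 leukocyte markers, 3 were tested in PC3, and edgeR called 3 higher and DESeq2 2. The summed level of the 6 was 26.8 to 29.3 CPM in PC3 NSI and 44.8 to 50.3 CPM in PC3 siFOXA1. Nearly all of it was CD68, a lysosomal gene, at 28 CPM in NSI and 46.6 CPM in siFOXA1. The general leukocyte gene PTPRC was at 0.0237 and 0.109 CPM in those groups, and CD3E and ITGAM averaged at most 0.0182 CPM each. In VCaP the sum was 0.956 to 1.20 CPM in NSI and 2.68 to 3.27 CPM in siFOXA1, mostly CD14. Markers of plasmacytoid dendritic cells, a major interferon source, summed to at most 0.567 CPM in any library, with at least 1 of the 3 at 0 in every group. The summed level of 3 fibroblast markers was 23.5 to 28.3 CPM in PC3 NSI and 40.9 to 45.5 CPM in PC3 siFOXA1. Of these, the collagen genes COL1A1 (0.62) and COL1A2 (1.60) rose in PC3, while PDGFRB, a growth factor receptor, fell by 0.63. In VCaP the fibroblast sum was 0.777 to 6.12 CPM in NSI and 0.595 to 4.59 CPM in siFOXA1. There edgeR called PDGFRB alone, at -1.36, and DESeq2 called none of the fibroblast markers. The endothelial marker VWF was at -0.24 without a call in PC3 and fell by 1.19 in VCaP, and CDH5 averaged at most 0.0908 CPM in any group. Epithelial markers moved as well. In PC3, EPCAM (-0.42), KRT18 (-0.50) and CDH1 (-0.66) were called lower and KRT8 (0.42) higher, and in VCaP KRT18 alone was called, at -0.64. The part of these shifts in the members' changes was not tested.

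Genes whose products act on IFITM proteins changed by at most 0.61 on the log2 scale in either line. ZMPSTE24, a protease that works with IFITM proteins, was at -0.11 in PC3 without a call and fell by 0.61 in VCaP. ZDHHC20, a palmitoyltransferase, was at 0.33 without a call in PC3 and fell by 0.27 in VCaP. VAPA, a membrane contact protein that binds IFITM3, fell by 0.25 in PC3 and was at -0.05 without a call in VCaP. SETD7, a lysine methyltransferase, rose by 0.22 in VCaP, and NEDD4, a ubiquitin ligase, was at 0.25 in PC3 and -0.08 in VCaP without a call. With the replicate block, edgeR called ZDHHC20 (0.34, adjusted p = 0.00181) and NEDD4 (0.26, adjusted p = 0.0134) higher in PC3.

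The genes beside the IFITM members had lower log2 fold changes than every IFITM member in PC3. Of 16 protein-coding genes within 200 kb of them, 12 were tested in PC3, with log2 fold changes of -1.07 (NLRP6) to 0.28 (SIGIRR). None was called by edgeR without the replicate block, 2 had an unadjusted p under 0.05, and DESeq2 called 2 lower. With the replicate block, edgeR called SIRT3 (0.23) and SIGIRR (0.30) higher and ATHL1 (-0.57), B4GALNT4 (-0.45) and PTDSS2 (-0.40) lower. In VCaP 11 were tested. ANO9, at 1.21, and SIGIRR, at 0.63, were higher, and RIC8A, at -0.77, PKP3, at -0.43, and PTDSS2, at -0.20, were lower. Beside the IFIT members, LIPA, whose span encloses 3 of them, had a log2 fold change of 0.21 and an adjusted p of 0.0692 (SE 0.07) in PC3 without a call in edgeR, which the replicate block turned into a call (adjusted p = 0.0157), and 0.60 (SE 0.06) with a call in VCaP.

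The related gene IFIT1B, between IFIT3 and IFIT1, rose in PC3 with a log2 fold change of 2.57 (SE 0.42), from 6, 5.5 and 3.5 counts to 43, 26 and 26. It held at most 1 count in any VCaP library. IFITM10, a more distant relative elsewhere on chromosome 11, was at 0.46 in PC3 without a call and rose by 1.05 in VCaP, where it held 15.1 to 20.9 counts in NSI and 32 to 41.5 in siFOXA1. The pseudogene IFITM4P, on chromosome 6, was at 1.24 in PC3 without a call. IFITM5, a bone gene, was under the filter in both lines.

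**Figure D5:**
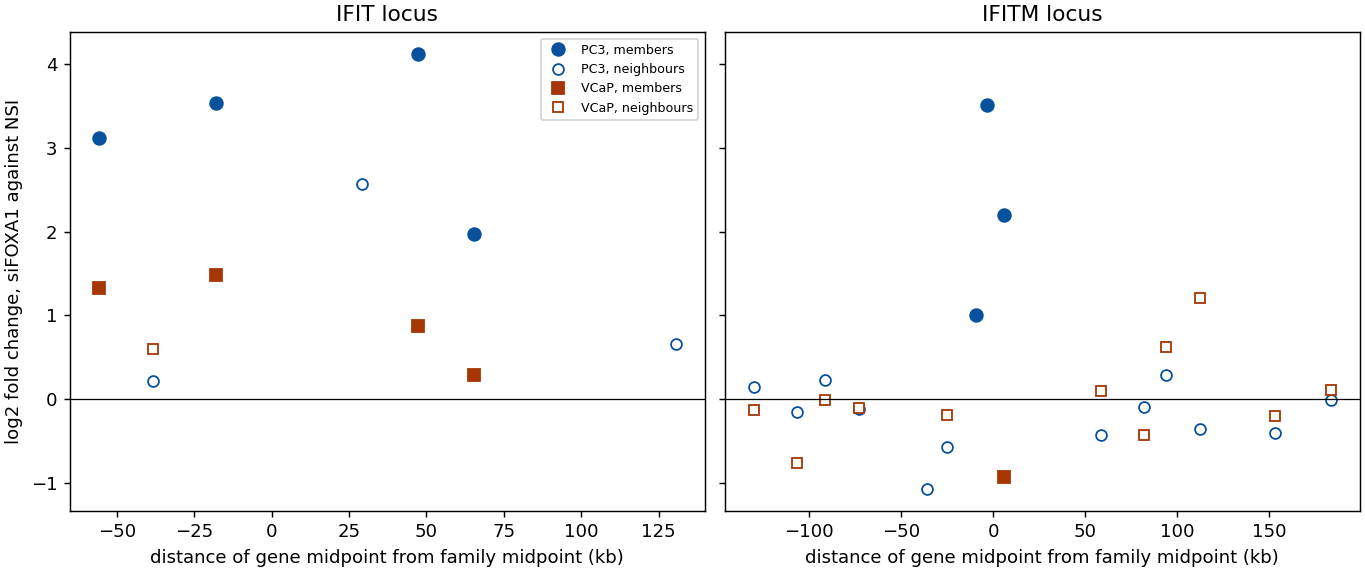
Log2 fold change of siFOXA1 against NSI for members and for tested genes within 200 kb, plotted against the distance in kb of a gene's midpoint from the middle of its family; circles are PC3, squares are VCaP, filled symbols are members and open symbols are neighbours. In PC3 the IFITM members stand between 1.00 and 3.51, and the genes on either side lie between -1.07 and 0.28.

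The genes most like each family over the 12 libraries were found by Pearson correlation of log2(CPM + 0.5) with the family's mean, among 14236 genes averaging 5 CPM or more in at least 1 line. For the IFIT family these were ADIPOR1 and PLEKHA4 (r = 0.997 each) and APLP2, TRIM5 and MX1 (r = 0.995 each). Likeness in shape did not mean likeness in size: in PC3 the log2 fold change was 0.34 for ADIPOR1, 0.40 for APLP2 and 4.38 for MX1. For the IFITM family they were C10orf55, IL1B, BST2, CSAG2 and PDE1C (r = 0.999 each), which in VCaP averaged at most 0.0323 CPM. The 12 points share 2 lines and 2 kits, so the gap between the lines sets much of each correlation, and no p is given.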

How the data were processed

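Estimated counts per gene, 1 table per library, were deposited by the authors. Per the file headers, these expected counts are featureCounts output on GRCh37 and GENCODE v28lift37 basic, which divided fragments among places and genes, with strand ignored in PC3 and used in VCaP. STAR 2.7.3a and Subread 2.0.0 are named in the submitters' processing notes. Between 54.8% and 75.2% of nonzero values per library were not whole, and counts were rounded.

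For each line, edgeR 4.0.16 (R 4.3.3) was run on the 6 libraries with filterByExpr, TMM factors (0.959 to 1.04) and two-sided quasi-likelihood tests. Baseline and interaction came from a fit of all 12. None of these fits held a term for replicate number, so the PC3 values given do not use the pairing unless the replicate block is named. Genes were called at an adjusted p under 0.05, by Benjamini-Hochberg adjustment over every gene tested. Every standard error was the log2 change divided by the square root of F. The code was tested on simulated data. Biological coefficients of variation were 15.0% (PC3) and 9.90% (VCaP). DESeq2 1.42.0, other scalings, no filter, the replicate block and left-out libraries were alternatives.

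The members and lists were chosen with earlier results of these data known. The text names all members and FOXA1, and may name ligands, receptors, signalling and feedback genes, the 3 largest called rises and falls among sensors and effectors in each line, all IFITM-acting genes, called neighbours and the 5 genes most like each family. NLRP6, neighbours called only with the replicate block, the other rows of the families and the markers were named after their values were seen.

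The pairing of replicate numbers was checked from how far NSI and siFOXA1 libraries of one number deviated together from the means of their groups, as correlations over genes. In PC3 these were 0.60, 0.68 and 0.27, each over 0.1, and the numbers were taken to pair the samples. Unlike numbers correlated too, NSI 1 with siFOXA1 3 at 0.48 and NSI 3 with siFOXA1 1 at 0.26. The deposited tables carry other replicate numbers than the titles, again shared between NSI and siFOXA1. In VCaP they were 0.10, 0.01 and 0.41, and they do not. Some listed genes are not reported here.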

Additional observations from a re-analysis of the deposited data

Results flagged for a closer look

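A difference in response between the lines drew attention to 5 members. The VCaP change minus the PC3 change on the log2 scale was -3.22 for IFIT1, -1.78 for IFIT2, -2.03 for IFIT3, -1.67 for IFIT5 and -3.11 for IFITM3, each tested as an interaction. For the IFIT genes a rise in PC3 stood beside a smaller rise in VCaP. For IFITM3 a rise in PC3 stood beside a fall in VCaP. The line cannot be told apart from dose, medium, kit and strand use.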

How the results depend on the processing

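The number of members called stayed at 7 in PC3 and at 5 for the difference between the lines under every alternative run. In VCaP it was 4 to 5, the loss being IFIT5. With the replicate block, 11297 genes were called in PC3, 11482 in VCaP and 8812 in the interaction, against 7149, 10501 and 6760 without it, and no member's call changed. The replicate block added calls for 9 of the other listed genes in PC3, all given in the report. With a library left out, the PC3 count ranged from 3945 (without siFOXA1 replicate 1) to 7592, and was 4602 without NSI replicate 3. The IFITM2 difference between the lines ranged from -1.72 to 0.44 with a library left out, turning to 0.44 (edgeR adjusted p = 0.858) without VCaP NSI replicate 1, which held 7 of its 9 NSI counts. That of IFITM1 ranged from -2.23 to -0.68. The IFIT5 change in VCaP was 0.31 in the fit of all libraries and 0.19 to 0.38 with a library left out. With library size alone as the scale, IFIT1 in PC3 siFOXA1 was at 109 in place of 107 RPKM, and the median PC3 change of all genes was 0.08 in place of 0.02. In VCaP the pathway genes called ranged from 19 to 24 higher and from 11 to 13 lower. These ranges cover library size alone, the replicate block and left-out libraries. The count of pathway genes called lower in PC3 ranged from 1 to 2 with a library left out, an alternative chosen after seeing the data. The summed family levels and shared stretches were also added then. Depth limits IFITM1 and IFITM2 in VCaP.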
